A study of Mus musculus with 34 samples.

Results

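Expression of 36 genes of cell division and DNA replication was followed in adipose tissue and heart of mice on 3 diets. The genes were taken by symbol from the deposited tables: 10 serve DNA replication and nucleotide supply (Mcm2, Mcm3, Mcm4, Mcm5, Mcm6, Mcm7, Pcna, Rrm2, Tyms and Tk1), 24 serve entry into or passage through mitosis, and E2f1 and Foxm1 encode transcription factors of the cell cycle. The adipose table held all 36 among its 15145 genes. The heart table held 28 among its 13238 genes, and had no row for 8 of the mitosis genes (Birc5, Ccnb1, Ccnb2, Bub1, Aurkb, Plk1, Kif11 and Kif2c). All 36 and all 28 passed the filter on low counts.

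All groups were C57BL/6J mice, with no transgene named in the labels, aged 20 to 22 months. Control mice ate a diet with 10% of its calories from fat. HFCD mice ate a high-fat, high-calorie diet with 60% of its calories from fat. HFCD+FMD mice ate HFCD that was interrupted every 4 weeks by 5 days of a fasting mimicking diet (FMD). From cycle 6, each of these was followed by 2 days of control diet. The labels of all groups give 11 cycles and 4 days after an abbreviation (RF) that they do not spell out. RNA from whole tissue was sequenced after removal of ribosomal RNA. Adipose tissue gave 3 control, 4 HFCD and 6 HFCD+FMD libraries, and heart gave 5, 5 and 4. The fat depot was not given in the labels. The animals are old, which limits the groups as models of younger mice.

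A dividing cell copies its DNA in S phase and separates the copies in M phase. The MCM2 to MCM7 proteins form the ring-shaped helicase that opens DNA at replication origins, and PCNA is the sliding clamp that holds the polymerases on their template. RRM2, TYMS and TK1 supply deoxynucleotides. E2F proteins drive the replication genes late in G1, while the DREAM and MYB-MuvB complexes and FOXM1 act on the mitosis genes through a cell-cycle homology region and CCAAT boxes in their promoters. Adipocytes and cardiomyocytes of adult animals seldom divide, and in adipose tissue macrophages, endothelial cells and adipocyte progenitors are known to proliferate in obesity.

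Promoters of both kinds are printed because the replication and mitosis members differed in these letters, which played no part in choosing the 36 members. The letters did play a part in choosing which promoters are printed. RefSeq promoters (GRCm38.p6, 250 bases before to 50 after the transcription start) were found for 30 of the 36 members. Aurkb, Kif20a, Foxm1, Ccna2, Mcm4 and Tpx2 had no entry. Each run below reads 5′ to 3′ in the direction of the gene and lies before its RefSeq start. Capitals mark a match, on either strand, to the cell-cycle homology region (searched as TTTGAA, by another spelling, TTCGAA, and by the spelling TTTAAA), to the CCAAT box (CCAAT), or to an E2F-type site (the form TTTGGCGC, the form TTTCCCGC, the form TTTCGCGC and the form TTTGCCGC). Neighbouring or overlapping matches share 1 run of capitals. Matches in a window but outside its printed run are not shown. For the homology region these are TTTAAA in Mcm5 and in Rrm2, and TTTGAA in Plk1. The first set holds replication members: Mcm5 and Mcm6 with E2F-type letters, Rrm2 with a CCAAT box, and Tyms with none of the motifs in its whole window.
Mcm5 (chr8:75109349-75109508, plus strand): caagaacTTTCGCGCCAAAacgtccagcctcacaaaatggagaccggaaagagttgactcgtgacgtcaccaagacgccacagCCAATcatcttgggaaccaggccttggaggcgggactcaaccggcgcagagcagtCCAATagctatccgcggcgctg
Mcm6 (chr1:128359706-128359825, minus strand): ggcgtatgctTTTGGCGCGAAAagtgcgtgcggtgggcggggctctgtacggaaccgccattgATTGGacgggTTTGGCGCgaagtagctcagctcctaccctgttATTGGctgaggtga
Rrm2 (chr12:24708134-24708253, plus strand): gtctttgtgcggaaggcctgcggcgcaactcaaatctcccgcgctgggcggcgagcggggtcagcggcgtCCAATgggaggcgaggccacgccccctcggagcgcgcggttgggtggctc
Tyms (chr5:30073626-30073745, minus strand): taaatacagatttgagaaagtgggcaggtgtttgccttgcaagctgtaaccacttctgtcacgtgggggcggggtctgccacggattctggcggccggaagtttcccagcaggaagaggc

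The second set holds mitosis members, chosen because they are the best-known markers of dividing cells in the list and carry homology region and CCAAT letters side by side.
Mki67 (chr7:135716380-135716579, minus strand): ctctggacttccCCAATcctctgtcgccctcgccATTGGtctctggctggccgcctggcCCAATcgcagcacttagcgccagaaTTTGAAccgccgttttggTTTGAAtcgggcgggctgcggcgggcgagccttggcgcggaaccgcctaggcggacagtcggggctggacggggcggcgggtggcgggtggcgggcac
Top2a (chr11:99024190-99024389, minus strand): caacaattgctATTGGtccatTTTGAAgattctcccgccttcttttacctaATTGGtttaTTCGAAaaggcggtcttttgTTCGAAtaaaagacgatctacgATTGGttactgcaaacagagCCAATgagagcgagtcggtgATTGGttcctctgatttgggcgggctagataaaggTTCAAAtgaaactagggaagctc
Cdk1 (chr10:69352913-69353052, minus strand): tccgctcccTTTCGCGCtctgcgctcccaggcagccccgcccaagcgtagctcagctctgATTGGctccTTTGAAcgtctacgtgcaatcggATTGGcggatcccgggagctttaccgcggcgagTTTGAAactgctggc
Cdc20 (chr4:118437344-118437463, minus strand): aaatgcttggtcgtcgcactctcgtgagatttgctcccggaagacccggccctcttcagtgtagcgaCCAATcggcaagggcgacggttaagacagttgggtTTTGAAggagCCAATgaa
Plk1 (chr7:122159335-122159434, plus strand): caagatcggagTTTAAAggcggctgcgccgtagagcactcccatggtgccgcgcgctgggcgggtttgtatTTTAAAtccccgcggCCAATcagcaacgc

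Homology region letters were found in 19 of 20 mitosis promoters (95%), in 5 of 9 replication promoters (55.6%) and in 29% of the 27025 promoters of the whole table. Nusap1 was the mitosis member without them. CCAAT letters were found in 17 of 20 mitosis promoters, in 7 of 9 replication promoters and in 37.9% of all promoters. E2F-type letters were found in 4 of 9 replication promoters (Mcm3, Mcm5, Mcm6 and Mcm7), in 1 of 20 mitosis promoters (Cdk1) and in 2.32% of all promoters. The E2f1 window held none of the 3. With TTTGAA as the only form of the homology region, 15 of 20 mitosis and 1 of 9 replication promoters matched, against 18.1% of all. With the window narrowed to the 100 bases before the start, 8 of 20 mitosis and 1 of 9 replication promoters kept homology region letters (10.3% of all), and 1 replication and 0 mitosis promoters kept E2F-type letters (0.84% of all). A match is a description of letters and not evidence that a factor binds there.

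**Figure D1:**
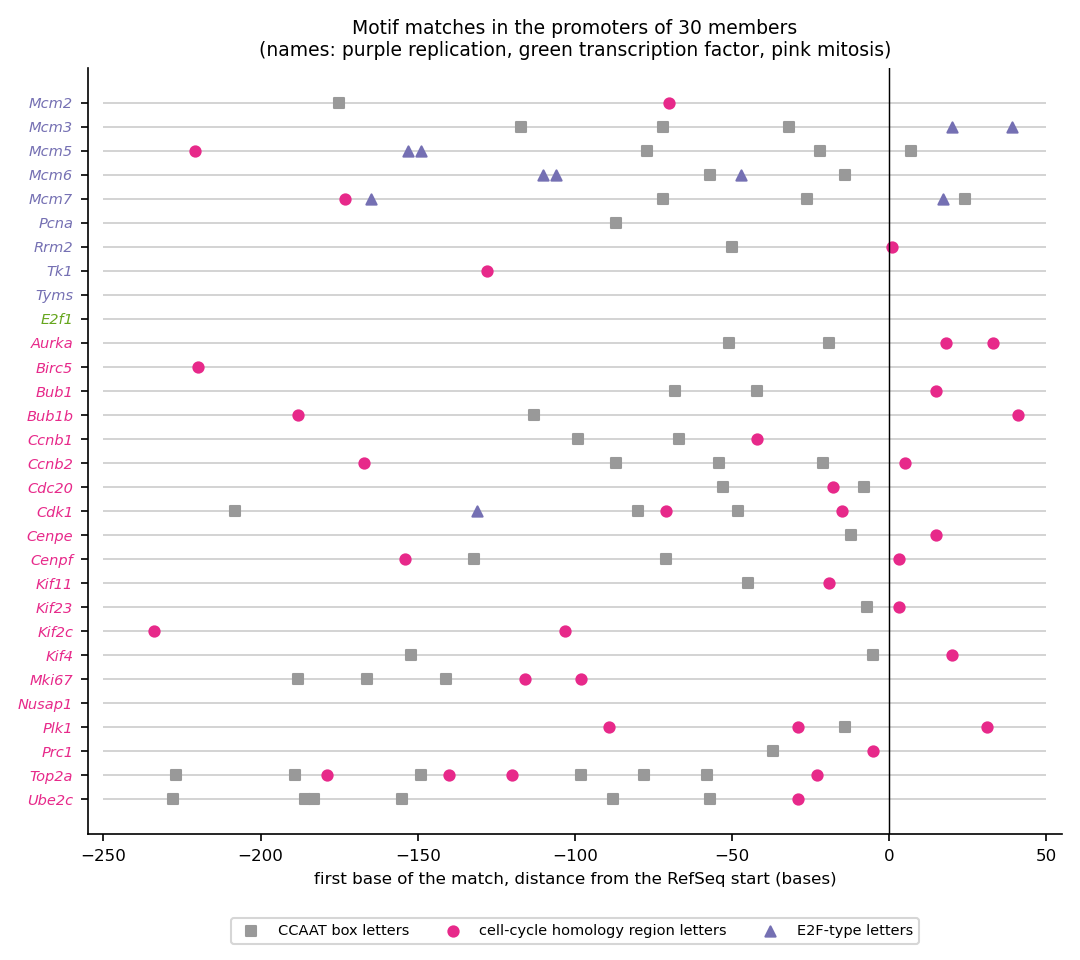
Motif matches in the 30 promoters found, 1 row per gene. The x axis is the distance in bases of a match's first base from the RefSeq start, and symbols tell the 3 motifs apart. Homology region letters (circles) appear in 19 of the 20 mitosis rows, and E2F-type letters (triangles) in 4 of the 9 replication rows and 1 mitosis row.

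Library totals ran from 15604982 to 40831656 counts in adipose tissue and from 16848195 to 47859170 in heart. Adipocyte markers summed to 17680 to 46290 TMM-scaled CPM, the share of a library's scaled total, in adipose libraries, and cardiomyocyte markers to 29630 to 58620 CPM in heart libraries. The deposited heart values fall into 3 sets of libraries, whose meaning the labels do not give: set A holds control replicates 2, 3 and 5 with HFCD 1 to 4, set B holds HFCD 5 with HFCD+FMD 2, 3 and 5, and set C holds control 4 and 6 with HFCD+FMD 1. Heart HFCD replicate 5 stood apart from the other heart libraries, with 32.7 CPM of Myc against 2.68 to 6.09 CPM in the rest. It also had the highest age, 22 months against 20 or 21 months in the rest, and was the 1 HFCD library of set B. Its age, its set and its other features cannot be told apart. Mitochondrially encoded genes took 12.6% to 29.3% of counts in adipose control libraries, 2.17% to 6.08% in HFCD and 2.20% to 7.48% in HFCD+FMD. No 2 libraries of a group held identical counts, and p-values measure the spread between libraries.

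The question of the first comparison was what the high-fat diet did to these genes in adipose tissue. Of the 36 members, 33 were higher in HFCD than in control (edgeR quasi-likelihood test, adjusted p below 0.05) and 0 were lower, against 15.7% of all 15112 genes tested called higher. Mitosis genes had the higher median: all 24 passed, with a median log2 fold change of 2.22, while 8 of 10 replication genes passed with a median of 1.38. The median over all genes tested was 0.00 (-0.001437 before rounding). In 35 of 36 members each HFCD library lay above each control library, which held for 20.6% of all genes. In bulk tissue a larger share of dividing cells and more RNA per cell cannot be told apart.

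The helicase subunits covered a wide range. Mcm5 stood at 3.39, 5.16 and 5.35 CPM in the 3 control libraries, at 13.1, 21.3, 17.4 and 25.1 CPM in the 4 HFCD libraries, and at 11.9, 19.2 and 36.4 CPM as lowest, median and highest of HFCD+FMD. No HFCD or HFCD+FMD library of Mcm5 came down to the control range, and HFCD exceeded control by 2.03 (SE 0.38) on the log2 scale, adjusted p = 0.00316. Mcm2 went from 4.74, 6.05 and 6.59 CPM to 13.8, 18.1, 13.9 and 18.6 CPM (log2 fold change 1.46, SE 0.32, adjusted p = 0.00586). Mcm6 (1.55, SE 0.38, adjusted p = 0.0107) and Mcm3 (1.30, SE 0.30, adjusted p = 0.00801) lay near Mcm2. Mcm7 moved least of the ring: its control libraries had 15.2, 13.5 and 16.2 CPM and its HFCD libraries 18.0, 21.8, 18.97 and 24.1 CPM, and HFCD exceeded control by 0.47 (SE 0.17, adjusted p = 0.0488). Mcm4 had 13.5, 17.7 and 22.7 CPM in control and 23.5, 25.2, 26.7 and 33.0 CPM in HFCD and did not pass (0.59, SE 0.21, adjusted p = 0.054). The subunits form a ring in equal numbers of copies, but the difference at the RNA level ranged from 0.47 to 2.03.

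Per kilobase of exon, the level in control adipose tissue was highest for Pcna (6.86 ± 1.062 CPM per kb, SD, n = 3), followed by E2f1 (5.13 ± 0.38), Mcm4 (5.01 ± 1.29) and Mcm7 (3.38 ± 0.30). The mitosis member with the highest such level, Ube2c, had 2.16 ± 0.31 CPM per kb. In HFCD the order was Pcna (12.9 ± 1.58 CPM per kb, n = 4), Mcm6 (7.98 ± 1.84), Mcm4 (7.55 ± 1.15), Mcm3 (7.15 ± 1.38), E2f1 (6.10 ± 0.66) and Mki67 (5.61 ± 1.82). Apart from Pcna, each of these differed from its neighbour in the order by less than the larger of their SDs.

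Among the genes of nucleotide supply, Tk1, the thymidine kinase of the salvage pathway, showed the highest log2 fold change of all 36 members. Its control libraries held 1, 2 and 23 reads (0.10, 0.09 and 0.92 CPM), and its HFCD libraries 159, 275, 148 and 153 reads (3.95, 7.64, 5.25 and 6.36 CPM). The log2 fold change was 3.80 (SE 0.85, adjusted p = 0.00681), the largest SE among the members. It was 5.93 (adjusted p = 0.00345) without control replicate 5, the library with 23 reads, and 3.29 (adjusted p = 0.0293) without control replicate 3. Rrm2, the small subunit of ribonucleotide reductase, stood at 1.16, 1.51 and 2.48 CPM in control and at 7.82, 10.2, 7.91 and 9.35 CPM in HFCD (2.32, SE 0.51, adjusted p = 0.00641). Tyms, which makes thymidylate anew, had 4.16, 4.27 and 5.12 CPM in control and 5.66, 6.59, 5.60 and 6.32 CPM in HFCD. The Tyms libraries of the 2 diets did not overlap, but the difference did not pass (0.42, SE 0.21, adjusted p = 0.149). Pcna rose from 14.6, 15.4 and 19.4 CPM to 28.2, 33.1, 27.4 and 35.3 CPM (0.91, SE 0.27, adjusted p = 0.0241). The genes of this group therefore ranged from 0.42 to 3.80 in log2 fold change, a wider range than that of the mitosis genes.

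**Figure D2:**
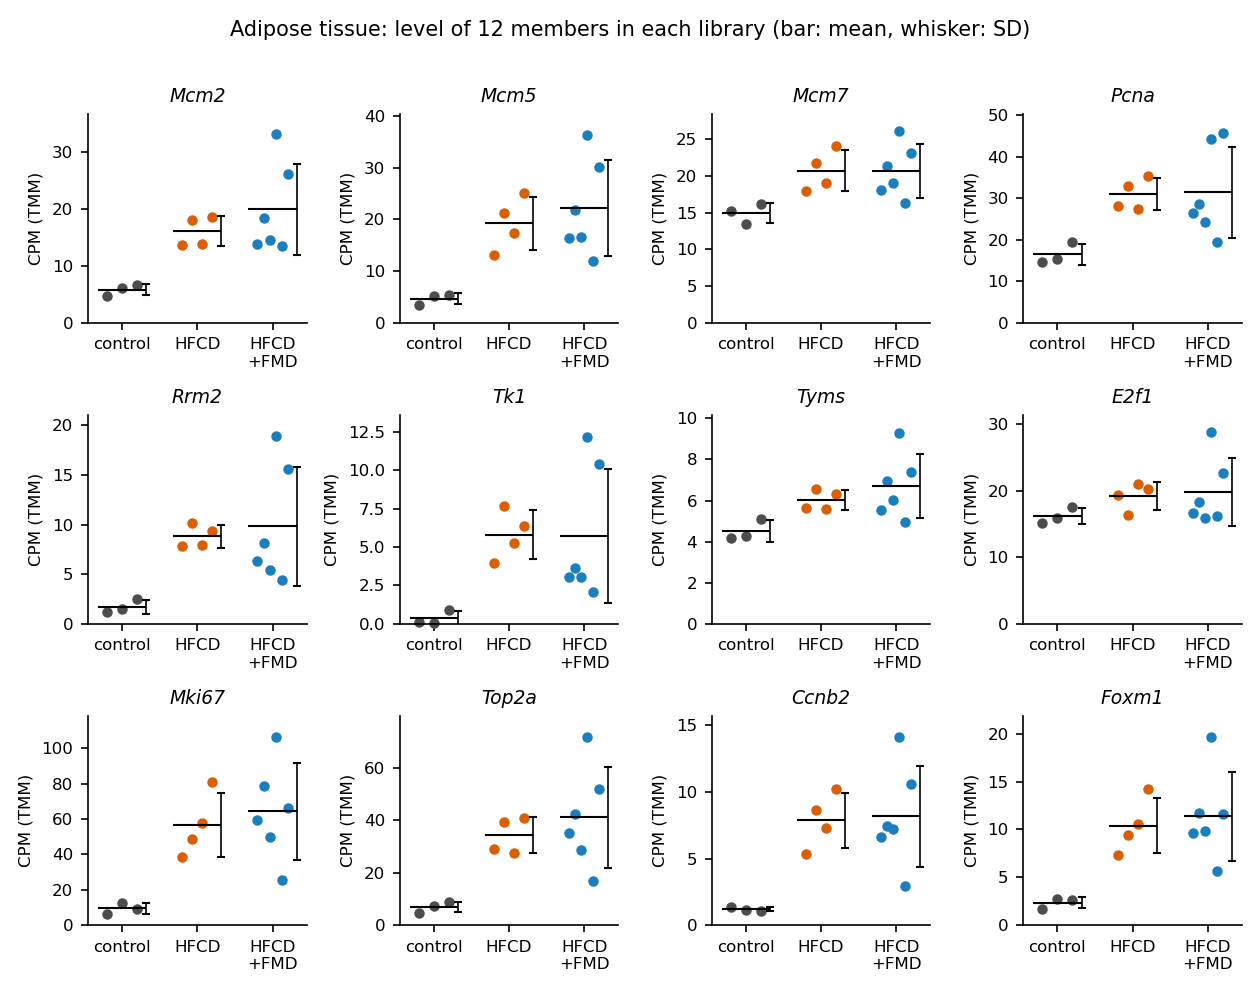
Level of 12 members in adipose tissue, in TMM-scaled CPM, for 3 control, 4 HFCD and 6 HFCD+FMD libraries (points), with the mean (bar) and SD (whisker). HFCD points lie above the control points in each panel but that of E2f1, and the HFCD+FMD points range for Mki67 from 25.3 to 106 CPM.

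The mitosis genes moved within a narrower band, from 1.12 (Ube2c) to 2.76 (Cdk1) on the log2 scale, with adjusted p between 0.00195 and 0.0273. Mki67 encodes the chromosome surfactant Ki-67, the usual label of cycling cells, and lies on chromosome 7 at 135689784 to 135716361 (minus strand, GRCm38, ENSMUSG00000031004). Its control libraries stood at 6.39, 12.6 and 9.31 CPM, its HFCD libraries at 38.2, 48.7, 57.9 and 81.1 CPM, and its HFCD+FMD libraries at 25.3, 62.9 and 106 CPM as lowest, median and highest. The lowest HFCD value of Mki67 lay well above the highest control value, and the log2 fold change was 2.56 (SE 0.43, adjusted p = 0.00205). Top2a, the topoisomerase that untangles sister chromatids, had 4.65, 7.202 and 8.63 CPM in control and 29.1, 39.4, 27.6 and 40.8 CPM in HFCD (2.30, SE 0.42, adjusted p = 0.00288). Its promoter above holds homology region letters and several CCAAT boxes.

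The mitotic kinase Cdk1 and its cyclins moved together. Cdk1 stood at 1.84, 2.53 and 1.12 CPM in control and at 10.9, 16.4, 8.58 and 13.7 CPM in HFCD (2.76, SE 0.54, adjusted p = 0.0039). Ccnb2, a B-type cyclin partner of CDK1, had 1.36, 1.16 and 1.04 CPM in control and 5.31, 8.62, 7.30 and 10.2 CPM in HFCD (2.75, SE 0.46, adjusted p = 0.00195), the smallest adjusted p of the 36. Ccnb1 was the rarer B cyclin, with 2, 5 and 13 reads in control and 66, 65, 38 and 54 in HFCD (2.40, SE 0.60, adjusted p = 0.0107). Ccna2, the A-type cyclin of S and G2 phase, rose from 2.13, 2.98 and 3.96 CPM to 12.2, 17.4, 14.9 and 25.8 CPM (2.505, SE 0.49, adjusted p = 0.00396). None of the libraries of these 4 genes overlapped between the 2 diets.

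Kinases and regulators of chromosome segregation followed. Plk1, the polo kinase of mitotic entry, stood at 0.68, 1.16 and 1.24 CPM in control and at 3.08, 4.78, 5.88 and 8.48 CPM in HFCD (2.39, SE 0.54, adjusted p = 0.00695). Aurkb and Birc5, a kinase and the survivin subunit of the chromosomal passenger complex, had log2 fold changes of 1.92 (adjusted p = 0.00684) and 2.72 (adjusted p = 0.00268). Aurka, the spindle pole kinase, rose less (1.29, SE 0.39, adjusted p = 0.0258), with 4.92, 5.09 and 5.28 CPM in HFCD replicates 1 to 3 and 8.64 CPM in replicate 4. The members of the anaphase-promoting system, Cdc20 (1.88, SE 0.47, adjusted p = 0.0111) and the ubiquitin-conjugating enzyme Ube2c (1.12, SE 0.35, adjusted p = 0.0273), were among the smaller rises. The checkpoint kinases Bub1 and Bub1b rose by 2.25 and 2.05. The kinesin motors ranged from 1.76 (Kif20a) to 2.63 (Kif4), with Kif2c at 2.62, Kif11 at 2.12 and Kif23 at 1.95. The kinetochore and spindle proteins ranged from 1.38 (Nusap1) through 1.97 (Cenpe), 2.09 (Tpx2) and 2.19 (Cenpf) to 2.47 (Prc1).

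The transcription factors gave unlike values, and the difference between them was not tested. Foxm1, an activator of mitosis genes, went from 1.65, 2.76 and 2.60 CPM in control to 7.35, 9.42, 10.6 and 14.2 CPM in HFCD (2.13, SE 0.38, adjusted p = 0.00253). E2f1, an activator of replication genes, stood at 15.2, 15.9 and 17.5 CPM in control and at 19.4, 16.3, 21.0 and 20.3 CPM in HFCD and did not pass (0.25, SE 0.20, adjusted p = 0.362). It was the member whose HFCD and control libraries overlapped.

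The number of calls rested in part on single control libraries. Without control replicate 1, which had the lowest summed member level, 25 of 36 members passed, and Aurka, Bub1, Cdc20, Mcm6, Mcm7, Nusap1, Pcna and Ube2c were lost. Without control replicate 3, 27 passed, and with limma voom 25 did, while the median log2 fold change stayed between 1.91 and 2.23 with each library left out in turn.

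Markers of several cell types also differed between the HFCD and control adipose libraries. Of 13 macrophage markers, 9 rose and 0 fell in HFCD, and their summed level was 411 to 1869 CPM in control, 2334 to 5071 CPM in HFCD and 1325 to 3449 CPM in HFCD+FMD. HFCD replicate 4 had both the highest macrophage sum (5071 CPM) and the highest member sum (663.6 CPM) of its diet, but the lowest endothelial sum (1239 CPM). Of 7 endothelial markers, 3 rose and 0 fell, with sums of 806 to 944 CPM in control and 1239 to 1409 CPM in HFCD. Of 7 adipocyte markers, 3 fell and 1 rose, with sums of 28960 to 46290 CPM in control and 22430 to 26770 CPM in HFCD. Of 7 fibroblast and adipose progenitor markers, 1 rose, and their sums overlapped (2283 to 4475 and 2459 to 4442 CPM). Of 10 markers of lipid-associated macrophages 7 rose and 0 fell. Their sums overlapped, at 16800 to 26670 CPM in control and 14710 to 20720 CPM in HFCD, and had the lower median in HFCD. Such a sum follows its most abundant genes. The median log2 fold change of these 10 markers was 2.56, with single markers between -0.51 and 5.30. Of 5 mesothelial markers 4 fell, with sums of 165.5 to 377.8 CPM in control and 20.5 to 105.4 CPM in HFCD. No T cell marker of 8 passed, and 1 of 7 B and plasma cell markers fell. Of all genes tested, 15.7% were called higher and 14.2% lower. The counts of 1 in 7 markers lay near these shares and are no result about those cell types. The part of these markers, and of the mitochondrial share of counts, in the members' rise was not tested.

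Genes of the same pathways that are not among the 36 were described from wider lists. Their counts are read against the 15.7% of all genes called higher and 14.2% called lower. Of 42 other replication genes, 20 rose and 1 fell in HFCD, with a median log2 fold change of 0.66. Timeless of the fork protection complex (1.12, SE 0.18, adjusted p = 0.00168) and Uhrf1, a reader of hemimethylated DNA (2.15, SE 0.42, adjusted p = 0.00387), had the smallest p among them, and Mcm8, a helicase of DNA repair, was the gene that fell (-0.72, SE 0.17, adjusted p = 0.00768). Of 58 other mitosis genes tested, 46 rose and 1 fell (Pttg1, the securin, -0.55, SE 0.15, adjusted p = 0.0159), with a median of 1.95. Among those that rose were the kinesin Kif18b (2.93, SE 0.42, adjusted p = 0.00104) and the spindle protein Aspm (2.53, SE 0.40, adjusted p = 0.00146). The wider lists thus showed medians in the same order, mitosis above replication, as the members.

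Counts for upstream genes are read against the 15.7% of all genes that were called higher and 14.2% called lower. Of 10 G1 cyclins and kinases 4 rose: Ccnd1 (1.58, adjusted p = 0.00301), Cdk6 (0.98, adjusted p = 0.018), Ccne2 (0.84, adjusted p = 0.0292) and Cdk2 (0.50, adjusted p = 0.0364). Cyclin D1 with CDK6 and cyclin E2 with CDK2 are kinases that inactivate the retinoblastoma proteins. Of 14 inhibitors and pocket proteins, 2 rose and 2 fell, shares near those of all genes. Cdkn1c, the inhibitor p57, fell by 1.51 (SE 0.38, adjusted p = 0.0122), from 128, 47.5 and 77.5 CPM to 18.5, 21.0, 33.3 and 45.7 CPM. Cdkn2c, the inhibitor p18, fell by 1.03 (SE 0.27, adjusted p = 0.0145), while Cdkn3, a phosphatase of CDKs expressed in dividing cells, rose by 1.60 (adjusted p = 0.00633) and the pocket protein Rbl1 by 0.57 (adjusted p = 0.0326). Cdkn1a (0.33, adjusted p = 0.258), Cdkn2a (0.58, adjusted p = 0.204) and Trp53 (0.07, adjusted p = 0.803) did not pass. Of 16 E2F, MYB and DREAM regulators, 4 rose, led by the repressor E2f8 (2.60, SE 0.54, adjusted p = 0.00496), and 0 fell.

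The second comparison asked whether FMD cycles on HFCD altered these genes against HFCD alone. None of the 36 members passed in either direction (0 by edgeR), against 0.0265% of all genes called higher and 0.179% called lower. At an unadjusted p below 0.05 the count was also 0, a threshold for which the share of all genes is not given here. DESeq2 and limma voom also called 0. The median log2 difference was 0.12, with single members between -0.23 (Cenpe) and 0.37 (Kif23), and 29 of 36 above 0. Mki67 differed by 0.19 (SE 0.33, adjusted p = 0.872), Tk1 by -0.02 (SE 0.56, adjusted p = 0.994) and Mcm7 by 0.00 (SE 0.14, adjusted p = 0.995). In no member did the libraries of the 2 diets separate, which 1.39% (higher) and 1.95% (lower) of all genes did. The SE of a member here ran from 0.14 to 0.56, and differences larger than 1 SE could also go undetected. Against control, for example, Mcm4 in HFCD differed by 0.59 (SE 0.21) and did not pass. Without HFCD+FMD replicate 4 the median was -0.09.

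The HFCD+FMD libraries covered a wide range. The summed level of the 36 members was 288, 431.5, 468.6, 571.2, 684.5 and 930.5 CPM in replicates 5, 3, 1, 2, 6 and 4, a 3.23-fold range, against 400.3 to 663.6 CPM in HFCD and 136 to 204.5 CPM in control. A range widens with the number of libraries, 6 here against 4 and 3, and the difference in spread was not tested. The highest and the lowest of these libraries were also highest and lowest for Mki67, Top2a, Mcm5 and Foxm1, while Pcna was highest in replicate 6 and E2f1 lowest in replicate 3. Replicate 4 had the highest macrophage (3449 CPM) and endothelial (2329 CPM) marker sums of the 6, and replicate 5 had 1395 and 1177 CPM. The lowest macrophage sum was that of replicate 3 (1325 CPM), which had 1766 CPM of endothelial markers. The lowest endothelial sum was that of replicate 2 (1153 CPM). The macrophage sums followed the order of the member sums, except that replicates 3 and 5 changed places. The endothelial sums had another order. The part of these markers in the spread was not tested. Leaving out replicates 4 and 5 together left 33 members above control.

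Against the same control libraries, HFCD+FMD gave values much like those of HFCD. Members higher than control numbered 33 and lower 0, against 10.5% of all genes called higher, 9.25% lower and 19.7% in either direction. The median log2 fold change was 2.20, with 2.42 for mitosis and 1.49 for replication. Mki67 exceeded control by 2.75 (SE 0.42, adjusted p = 0.00262), Foxm1 by 2.26 (SE 0.37, adjusted p = 0.00315) and Mcm5 by 2.24 (SE 0.37, adjusted p = 0.00345). Mcm4 passed (0.68, SE 0.20, adjusted p = 0.0329), while Mcm7 (0.46, adjusted p = 0.0517), Tyms (0.57, adjusted p = 0.0591) and E2f1 (0.29, adjusted p = 0.282) did not. Both diets are set against 1 group of 3 control libraries, so these values are not independent of those for HFCD. Without control replicate 1 the count was 20, without control replicate 3 it was 25, and with limma voom it was 17.

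**Figure D3:**
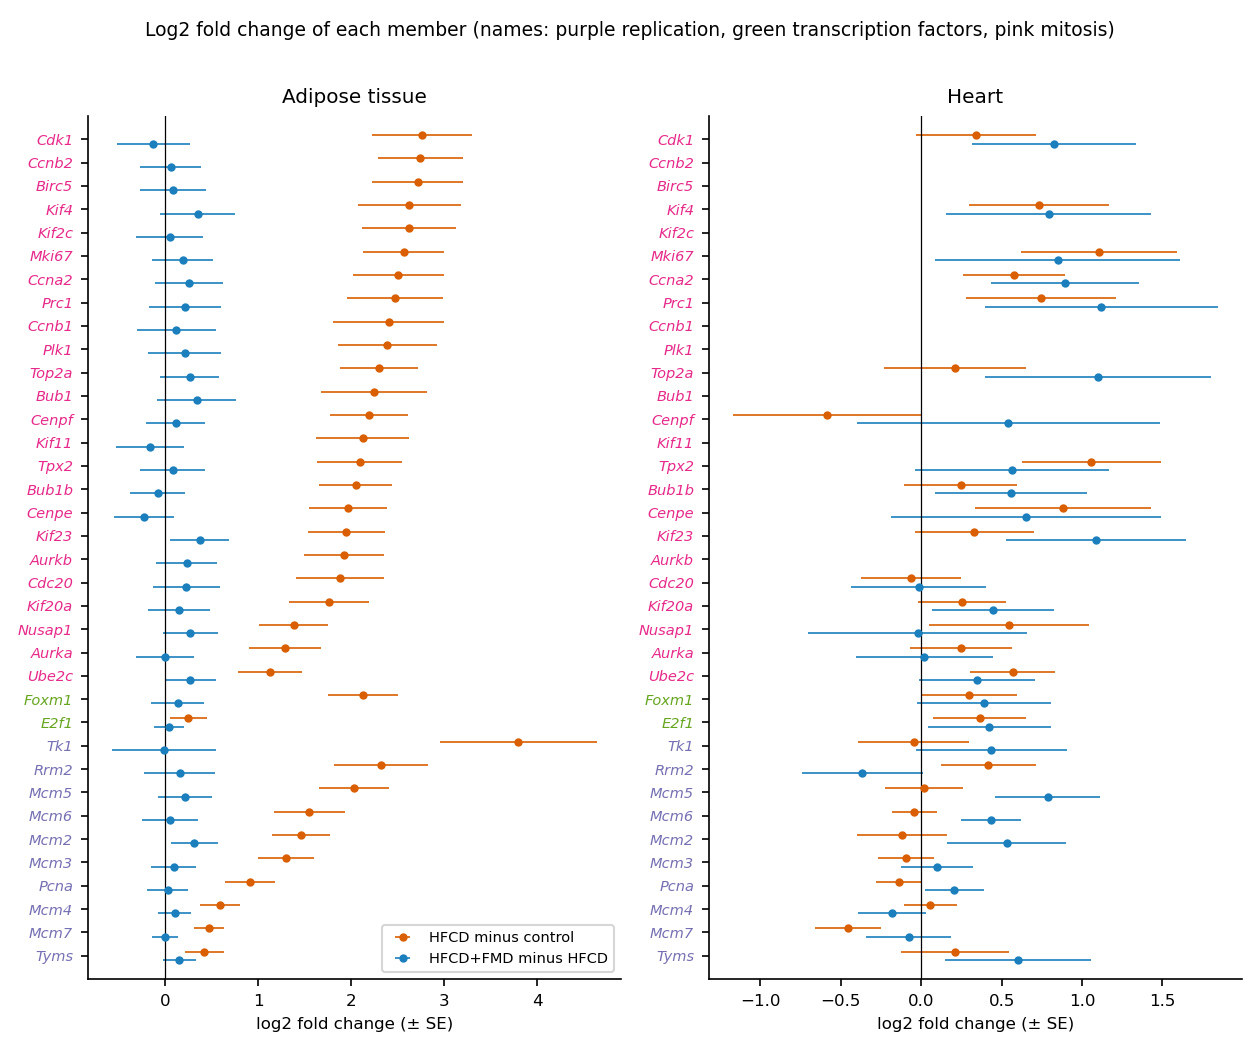
Log2 fold change with SE of each member in adipose tissue (left) and of the 28 members with a row in heart (right), for HFCD against control (orange) and HFCD+FMD against HFCD (blue). In adipose tissue the orange points run from 0.25 to 3.80 and the blue points from -0.23 to 0.37. The x axes of the panels differ.

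Replication and mitosis genes were set side by side in each library, as the mean log2 CPM of the 24 mitosis members minus that of the 10 replication members, relative to the control mean (edgeR log2 CPM with a prior count of 0.5). In adipose tissue this difference was 0.48, 0.51, 0.60 and 0.82 in the HFCD libraries (mean 0.60 ± 0.15, SD, n = 4). Control libraries lay between -0.26 and 0.22 (SD 0.24, n = 3), below each HFCD library. The HFCD+FMD libraries had 0.12, 0.68 and 0.85 as lowest, median and highest (mean 0.61 ± 0.27, n = 6), and replicate 5, the lowest in summed level, was the one inside the control range. The replication mean itself was 1.60 ± 0.23 above control in HFCD and the mitosis mean 2.20 ± 0.36 above. Both groups thus rose in the same libraries, the mitosis genes by more, in each HFCD library.

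**Figure D4:**
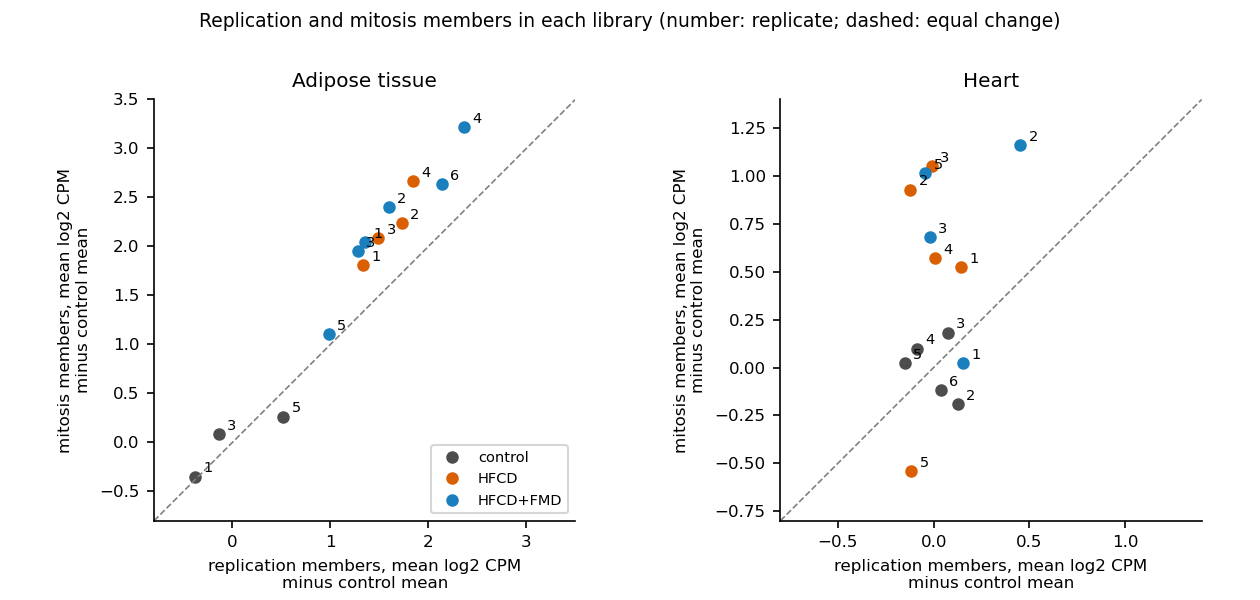
Mean log2 CPM of the mitosis members (y) against that of the replication members (x) in each library, both minus the control mean, in adipose tissue (24 and 10 genes) and heart (16 and 10 genes). Numbers are replicates and the dashed line marks equal change. The HFCD and HFCD+FMD adipose libraries lie above the line, and in heart the libraries spread mostly along the mitosis axis, with HFCD replicate 5 lowest at -0.54. The panels have different scales.

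In heart of control mice 26 of the 28 members had a lower mean CPM than in adipose tissue (not Tk1 and Cenpf). CPM were scaled within each tissue, and the share of all genes lower in heart was not counted. The number is thus no result about the members as such. No member passed in any comparison in heart. For HFCD against control 0 of 28 members passed (edgeR, DESeq2 and limma voom each called 0), 3 of them had an unadjusted p below 0.05, and 0% of the 13230 genes tested were called higher. The median log2 fold change was 0.25, with 0.44 for the 16 mitosis and -0.05 for the 10 replication members. For HFCD+FMD against HFCD the counts were 0 passed (0% of all genes called higher, 0.106% lower) and 2 at an unadjusted p below 0.05, and for HFCD+FMD against control 0 (0% higher, 0.0227% lower) and 9. The share of all genes at an unadjusted p below 0.05 is not given here. The counts at that threshold are thus no result about the members as such. Few heart members had libraries that separated the diets. For HFCD against control 0 lay higher (3.21% of all genes) and 0 lower (3.98%) in all libraries. For HFCD+FMD against HFCD Pcna lay higher (2.59%), and against control Mki67 and Tpx2 lay higher (4.76%) and Mcm7 lower (4.26%). The replication members summed to 42.4 to 47.9 CPM in control, 39.4 to 47.8 CPM in HFCD and 45.7 to 57.3 CPM in HFCD+FMD. These sums overlapped between the 3 diets.

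Mki67 in heart stood at 2.99, 3.74, 4.09, 4.46 and 4.08 CPM in control, at 8.37, 10.8, 20.5, 7.42 and 2.23 CPM in HFCD, and at 4.82, 11.5, 11.9 and 13.2 CPM in HFCD+FMD. Of the HFCD libraries, 4 lay above the control range and replicate 5 lay below it. The log2 fold change of HFCD against control was 1.11 (SE 0.49, adjusted p = 0.385), and that of HFCD+FMD against control 1.95 (SE 0.73, adjusted p = 0.407). Prc1, which bundles the central spindle, also had replicate 5 below the control range: 0.84, 1.33, 1.45, 1.13 and 0.93 CPM in control, 2.17, 2.95, 3.57, 2.06 and 0.30 CPM in HFCD, and 1.36, 2.80, 2.03 and 2.33 CPM in HFCD+FMD (HFCD against control 0.74, SE 0.46, adjusted p = 0.4661). Ccna2 had 1.16, 1.26, 0.91, 1.18 and 0.72 CPM in control, 1.91, 2.62, 2.22, 2.03 and 0.73 CPM in HFCD, and 1.17, 3.38, 1.60 and 1.98 CPM in HFCD+FMD. For Ccna2, HFCD replicate 5 and HFCD+FMD replicate 1 lay within the control range.

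Within set A, where 4 HFCD libraries meet 3 control libraries, 10 of the 16 mitosis members lay higher in each HFCD library than in each control library, against 9.27% of all genes, and 0 of 10 replication members did. These 10 were Mki67, Top2a, Ccna2, Kif20a, Kif23, Kif4, Cenpe, Tpx2, Prc1 and Ube2c, with differences in mean log2 CPM from 0.56 (Kif20a) to 1.56 (Mki67). They were counted after their values were seen. The mitochondrial share of counts moved with them: it was 36.4%, 42.7%, 71.5% and 37.8% in the HFCD libraries of set A and 32.6%, 25.1% and 27.6% in the control libraries, without overlap. Cardiomyocyte markers summed to 37930 to 39830 CPM in the former and 40240 to 58620 CPM in the latter. The part of both in these differences was not tested. Within set B, HFCD+FMD replicates 2, 3 and 5 were all above HFCD replicate 5 for 14 of 16 mitosis members (29.2% of all genes), which rests on that 1 HFCD library. Within set C, 1 HFCD+FMD library lay above both control libraries for 5 of 16 mitosis members (32.2% of all genes) and below both for 7 (29.9%). The heart values of HFCD+FMD rested on single libraries: without HFCD replicate 5 the median of HFCD+FMD against HFCD was -0.38 in place of 0.49, and without HFCD+FMD replicate 1 it was 0.92 with 5 members called. Against control the median was 0.74, 0.15 without HFCD replicate 5, and 1.36 with 7 members called without HFCD+FMD replicate 1. In the fit without HFCD+FMD replicate 1, HFCD+FMD met another diet only in set B, in HFCD replicate 5. The share of all genes called in that fit is not given here, so its calls are no result about the members as such. The deposited log2 values, from which the terms of the sets had been removed, gave 3 members higher than HFCD and 9 higher than control. That limma fit had no set factor and did not count the removed terms, so its p-values can be too small. Its counts are not on a par with those of the edgeR model, and the share of all genes it called is not given here.

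Single replication genes in heart gave small differences that did not pass. Mcm2 had 5.24, 5.77, 4.14, 4.74 and 4.46 CPM in control, 6.35, 4.37, 2.54, 5.83 and 3.89 CPM in HFCD, and 5.70, 8.08, 5.56 and 3.17 CPM in HFCD+FMD, with overlap between all diets. Mcm5 was 2.37 ± 0.23 CPM in control (n = 5), 2.36 ± 0.66 in HFCD (n = 5) and 3.52 ± 0.99 in HFCD+FMD (n = 4), and HFCD+FMD against HFCD did not pass (0.79, SE 0.33, adjusted p = 0.381). Mcm7 was 6.37 ± 1.39, 4.47 ± 0.49 and 4.15 ± 0.99 CPM (SD), and HFCD against control was -0.45 (SE 0.21, adjusted p = 0.385). Tk1, which differed most in adipose tissue, had 0.42 to 0.86 CPM in control, 0.33 to 0.78 CPM in HFCD and 0.43 to 0.89 CPM in HFCD+FMD.

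Cenpf, a large kinetochore protein, had the lowest log2 fold change of the mitosis members in heart for HFCD against control. It ranged from 15.03 to 83.8 CPM over the control libraries, from 11.6 to 55.4 CPM in HFCD and from 20.1 to 81.0 CPM in HFCD+FMD, and it was the second member by level per kilobase in control heart (2.73 ± 1.81 CPM per kb, n = 5), after Pcna (3.95 ± 0.55). The next mitosis member, Cdc20, had 0.42 ± 0.16 CPM per kb. In adipose control tissue the Cenpf level was 0.87 to 2.04 CPM in all. HFCD against control was -0.59 (SE 0.58, adjusted p = 0.618) in heart and 2.19 (SE 0.42, adjusted p = 0.00353) in adipose tissue. For HFCD+FMD against HFCD in heart, Cenpf was at 0.54 (SE 0.94, adjusted p = 0.919), near the median of 0.61 over the mitosis members.

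**Figure D5:**
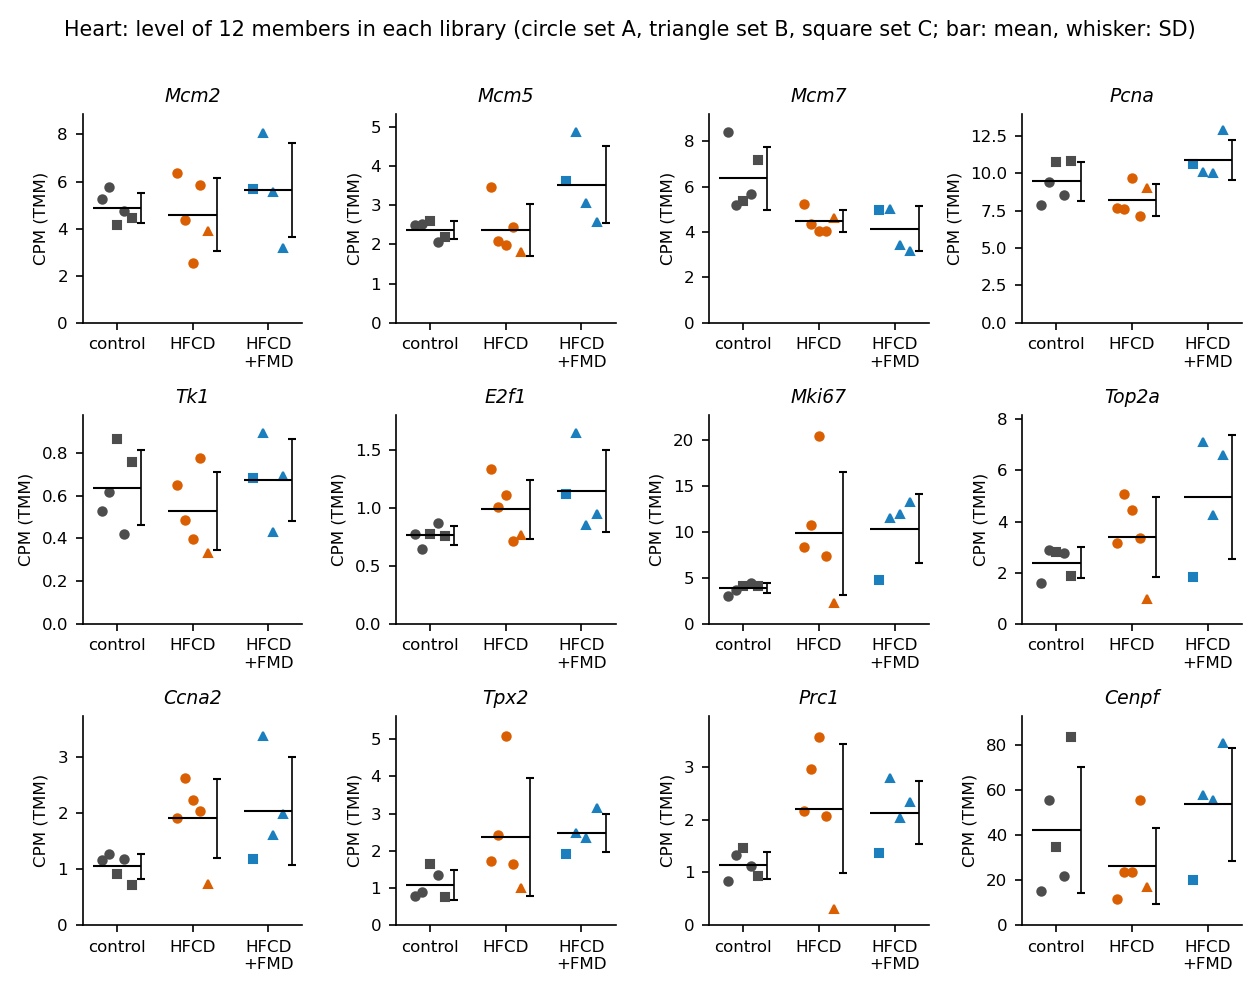
Level of 12 members in heart, in TMM-scaled CPM, for 5 control, 5 HFCD and 4 HFCD+FMD libraries, with mean (bar) and SD (whisker). Circles, triangles and squares mark sets A, B and C. For Mki67, Top2a, Ccna2 and Prc1 the HFCD circles lie above the control circles and the HFCD triangle, replicate 5, lies lowest of its diet.

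Other cell cycle genes of heart showed 1 call. Of 10 G1 cyclins and kinases, Myc, a driver of cell growth, was lower in HFCD+FMD than in HFCD (-2.33, SE 0.38, adjusted p = 0.0392). The Myc values were 4.62, 6.02, 4.84, 3.65 and 32.7 CPM in HFCD and 2.68, 2.75, 3.80 and 5.18 CPM in HFCD+FMD. Without HFCD replicate 5, the library at 32.7 CPM, the difference was -0.88 (adjusted p = 0.96). Of 37 other replication and 30 other mitosis genes with a row in heart, 0 passed in any comparison, nor did any of 11 inhibitors and 15 E2F, MYB and DREAM regulators. Among those of smallest p were Tfdp2, a partner of E2F proteins, at -1.19 for HFCD+FMD against HFCD (SE 0.23, adjusted p = 0.0656), and Cdca3, a mitotic entry gene, at 1.92 for HFCD+FMD against control (SE 0.40, adjusted p = 0.151). In heart the macrophage marker sum was 161.5 to 243.9 CPM in control and 170.8 to 379.3 CPM in HFCD, highest in replicate 5, and its part in the values of that library was not tested. Over all heart libraries, the cardiomyocyte sum was 40240 to 58620 CPM in control, 29630 to 39830 CPM in HFCD and 45570 to 54750 CPM in HFCD+FMD, so each HFCD library lay below those of both other diets. The endothelial sum was 548.7 to 751.4, 721.3 to 843.4 and 749.6 to 856.4 CPM, and the adipocyte sum 558.9 to 1358, 832.5 to 1624 and 645.9 to 756.6 CPM in the same order. Within the adipocyte sum, Fabp4 had means of 427, 576 and 458 CPM. Of 6 adipocyte markers tested, 1 (Cidec) was called lower in HFCD+FMD. It differed by -6.92 from HFCD (adjusted p = 0.0392, 0.106% of all genes lower) and by -9.58 from control (adjusted p = 0.0157, 0.0227%). Its means were 1.33, 1.84 and 0.04 CPM in the same order. The mitochondrial share was 27.2% ± 4.07 in control, 49.6% ± 15.4 in HFCD and 45.8% ± 18.4 in HFCD+FMD (SD). The part of these shifts in the heart values was not tested.

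The difference between the tissues was tested directly, as the interaction of tissue and diet over 12606 genes, 28 of them members. The joint model for this held no term for the heart library sets, unlike the heart model above. Its values therefore need not equal the adipose value minus the heart value given above. The effect of HFCD against control was larger in adipose tissue for 16 of 28 members and smaller for 0, against 11.4% of all genes larger. The median difference over the members was 1.51 on the log2 scale, and 0.02 over all genes. Of the 16, 8 were replication and 7 mitosis members, and the other was Foxm1. Tk1 differed by 4.01 (SE 0.83, adjusted p = 0.00204), Mcm5 by 2.05 (SE 0.42, adjusted p = 0.00189) and Mcm3 by 1.38 (SE 0.33, adjusted p = 0.00597). Mki67 was not among the 16 (1.26, SE 0.62, adjusted p = 0.137). For HFCD+FMD against control 12 members were larger in adipose tissue and 0 smaller (8.72% of all genes larger and 8.35% smaller, median 1.33), and for HFCD+FMD against HFCD 0 were larger (0% of all genes) and 0 smaller (0.0159%). Without adipose control replicate 1 the first count was 10 and the second 6, without adipose control replicate 3 the second was 7, and with limma voom they were 9 and 4. Which animal gave which library is not in the labels, so hearts and fat of the same mouse could not be matched and all libraries were treated as independent.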

How the data were processed

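The submitters' processing notes name STAR 2.5.3, R 3.5.3, edgeR, limma and the build mm10. Neither a counting program nor an annotation is named in those notes or in the labels. Deposited by the authors were whole-number counts per gene and, separately, log2 CPM of a scaled library size. In heart, 1 term per gene and library set had been removed from the deposited log2 values. Of 34 samples in the labels, 27 had values and 7 were not analysed here. The 36 members and all gene lists were chosen with earlier results of these data known.

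Counts were tested per tissue with edgeR 4.0.16 (R 4.3.3): TMM scaling, filterByExpr on diet, 3 diets in 1 robust quasi-likelihood model, the library set as a factor in heart, two-sided F-tests and Benjamini-Hochberg adjustment over all genes at 0.05. The SE is the log2 fold change divided by the square root of F. Named genes were the members, up to 4 of smallest p that passed in each wider list (or the 1 of smallest p), and any G1 cyclin or inhibitor. Mcm8, Pttg1, Cidec and Fabp4, and the values per library of Aurka, Prc1 and Cenpf, were chosen after their values were seen. Tissue differences came from a joint model without the library set. Levels per kb use GENCODE M21 exon lengths. Replicates were numbered in accession order. Alternatives were DESeq2 1.42.0, limma 3.58.1 voom, the deposited log2 values with limma, other filters and scaling, age, sets, and each library left out. The scripts were tested on simulated data.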

Additional observations from a re-analysis of the deposited data

Results flagged for a closer look

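In 4 of 176 groups of member values, 1 library lay far from the rest of its diet, where chance gives about 1 in 20 groups. Adipose HFCD replicate 4 had 8.643 CPM of Aurka, with the next at 5.282. Heart control replicate 6 had 0.1683 CPM of Kif4, with the next at 0.498. Heart HFCD replicate 4 had 55.39 CPM of Cenpf, with the next at 23.62, and heart HFCD replicate 3 had 4.205 CPM of Nusap1, with the next at 1.794.

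The log2 fold change of HFCD against control differed between the tissues, by the interaction test in edgeR, for 16 members. Adipose minus heart was 4.006 for Tk1, 2.844 for Cenpf, 2.448 for Cdk1, 2.048 for Mcm5, 1.893 for Bub1b, 1.839 for Top2a, 1.814 for Rrm2, 1.693 for Ccna2, 1.65 for Cdc20 and 1.643 for Foxm1. It was 1.546 for Mcm2, 1.537 for Mcm6, 1.409 for Kif20a, 1.377 for Mcm3, 1.128 for Pcna and 0.9924 for Mcm7. For HFCD+FMD against control the same test passed for 12 members. Adipose minus heart was 3.61 for Tk1, 2.354 for Rrm2, 2.169 for Cdk1, 2.05 for Cdc20, 1.917 for Foxm1 and 1.77 for Ccna2. It was 1.654 for Mcm5, 1.558 for Kif23, 1.555 for Mcm2, 1.335 for Mcm6, 1.127 for Mcm3 and 1.075 for Mcm7.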

How the results depend on the processing

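In adipose tissue, members called higher than control with each library left out numbered 25 to 34 for HFCD and 20 to 35 for HFCD+FMD (17 with limma voom for the latter). The median of HFCD+FMD minus HFCD ran from -0.09281 to 0.2688, and the mitosis median minus the replication median from -0.005091 to 0.1457. Mki67 was -0.01613 without HFCD+FMD replicate 4 and 0.4125 without HFCD replicate 4. In heart, HFCD+FMD minus HFCD gave 3 calls with the deposited log2 values (limma, no set factor), 3 with only those 2 diets, and 0 to 5 with a library left out. Its median was 0.199 with age, 0.9219 with 2 diets, 0.0992 without the set factor, -0.06195 without it and HFCD replicate 5, and -0.3766 to 0.9213 with a library left out. Its mitosis minus replication value (0.29) was -0.06092, 1.195, -0.1569 and -0.2913 in the same order, 0.6735 within set B (log2 of CPM + 0.5 within sets), and -0.9832 to 1.194 with a library left out. Tpx2 was -0.05664 with age. Without the set factor and HFCD replicate 5, Mki67 was -0.1449, Tpx2 -0.07329 and Ccna2 -0.06805, and without HFCD replicate 5 alone they were -1.385, -0.7037 and -0.3376, against 2.451, 1.41 and 1.686 without HFCD+FMD replicate 1. HFCD+FMD minus control in heart gave 9 calls with the deposited log2 values (limma, no set factor) and 0 to 7 with a library left out. Its median was 0.4777 with age, 0.1521 with 2 diets, 0.5113 without the set factor, 0.1273 within set C and 0.1523 to 1.363 with a library left out, and its mitosis minus replication value (1.01) was 0.4101, -0.006369, 0.5843, -0.02844 and -0.006361 to 1.914. Members larger in adipose tissue numbered 9 (HFCD) and 4 (HFCD+FMD) with limma voom, and 10 to 17 and 6 to 18 with a library left out. In promoters, homology region letters were in 1 replication and 8 mitosis members, and E2F-type letters in 1 and 0, within 100 bases, and TTTGAA alone was in 1 replication member. The shares of all genes called under these alternatives are not given here, and the cause of these changes was not tested. No paired analysis was possible because the replicate numbers follow accession order and pair no samples.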
